A study of Homo sapiens with 3 samples.

Results

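MV-4-11 cells given 0.5 nM FL-Fc-DM1 for 1 day were compared with untreated MV-4-11 cells cultured for 1 day, over every gene of the deposited expression table. Each side was 1 library. Of 20332 genes in the table, 11322 were measured, meaning that they had a mean of 1 or more counts per 1000000 library counts (CPM) over the 3 libraries of the series. Among genes that averaged at least 5 CPM in the compared libraries, the largest ratios on the higher side were those of the histone gene H2AC6, the cell cycle inhibitor CDKN1A and the haem-degrading enzyme HMOX1. Differences shared by the genes of a list were small, with medians between -0.30 and 0.49 on the log2 scale for lists of 5 or more measured genes. DNA replication and amino acid synthesis genes lay on the lower side, and p53 targets of DNA repair and redox control, aryl hydrocarbon receptor targets, cytokines, integrins and interferon-stimulated genes lay on the higher side.

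MV-4-11 is an established human leukaemia line with myelomonocytic features, wild type by its label, and is known to carry an internal tandem duplication of FLT3 and a KMT2A fusion gene. All 3 cultures grew in IMDM medium with 10% FBS, and polyA RNA was sequenced. The third library came from cells given 1.5 nM FL-Fc-DM1 for 1 day. It shares the untreated library with the comparison described here, so its ratios are set beside those at 0.5 nM only as values. The labels do not spell out FL-Fc-DM1. DM1 is known as a maytansinoid, a toxin that binds tubulin and is used as the payload of antibody-drug conjugates, and FL is a usual abbreviation of FLT3 ligand. The columns of the table carry the numbers 0, 1 and 2 and no dose, and they were read as untreated, 0.5 nM and 1.5 nM in that order. If the columns of the 2 treated cultures were exchanged, every statement on 0.5 nM would describe 1.5 nM.

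The untreated library held 22329955 counts, the 0.5 nM library 16427203 and the 1.5 nM library 16864853. At these depths 3 counts, the limit that a count of 0 allows, correspond to 0.136, 0.182 and 0.177 CPM. With 1 library a group there was no replicate check and no test. Each value is therefore a log2 ratio of 0.5 nM to untreated between 2 libraries, given where it matters with a 95% exact (Clopper-Pearson) interval. These intervals cover only the error of counting and not the variation between cultures or preparations. They may also be too narrow, since reads copied by PCR do not count separate molecules. In bulk RNA, fewer cells of a type and less RNA per cell cannot be told apart. The counts of 2510 measured genes (22.2%) were not whole in at least 1 library, which can arise where reads are shared between overlapping or similar genes, and such genes are named as uncertain.

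All 12 defining myeloid markers were measured, and their summed level was 4646 TPM in the untreated library and 4666 TPM at 0.5 nM. In CPM the sums were 4093 untreated and 4005 at 0.5 nM. By log2 ratio 8 of the 12 were below 0, with a median of -0.06, 4 intervals above 0 and 6 below. Of 14 B lineage markers 2 were measured, and MS4A1, VPREB1 and DNTT were at 0 in both libraries. All 14 summed to 54.3 TPM untreated and 28.7 TPM at 0.5 nM. They include IGLL1, a lower gene described below, so the sums do not describe B lineage markers in general. T and NK, erythroid, epithelial and stromal markers summed to at most 40.8 TPM in either library. Genes known from embryonic kidney lines were present at like levels in both compared libraries and were low or missing at 1.5 nM. IRS4, an insulin receptor substrate, had 224, 204 and 0 counts in the untreated, 0.5 nM and 1.5 nM libraries, and PLS3, an actin-bundling protein, had 278, 198 and 75. Their part in the ratios at 1.5 nM was not tested.

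p53 is a transcription factor that raises genes of arrest, repair and cell death when cells are stressed, and MDM2 and CDKN1A are among its best-known targets. E2F factors drive the genes of DNA replication when the retinoblastoma protein is inactivated, whereas ATF4 drives genes of amino acid synthesis and import when amino acids are short or the integrated stress response is on. Interferon-stimulated genes carry the interferon-stimulated response element (ISRE), and messenger RNAs of ribosomal proteins begin with a terminal oligopyrimidine (TOP) tract through which their translation is controlled.

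Some of the lists described below are linked to these regulators or sequences. Promoter letters of members of such lists are shown first, and none are shown for p53. RefSeq windows (GRCh38.p14) from 250 bases before to 50 after the gene start were at hand for 9208 of the 11322 measured genes (81.3%). Replication genes held any of the E2F letters TTTCCCGC, TTTGGCGC, TTTCGCGC or TTTGCCGC, on either strand, in 25 of 69 windows (36.2%), against 5.71% of all measured genes with a window. The 4 shown had those letters, whole counts and the largest ratios in size among the members eligible for printing. Members on a chromosome left out of printing, and sites close to or after the gene start, were not eligible. Members with larger ratios can therefore be missing. The letters are in capitals with 10 bases on each side.
POLA1, chrX:24693771-24693798, + strand: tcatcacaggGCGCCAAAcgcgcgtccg
MCM3, chr6:52284899-52284926, - strand: ggatggtacgTTTCCCGCcaccgcgggg
GINS2, chr16:85688968-85688995, - strand: tctcgccgtgGCGGGAAAacggcggccg
CDT1, chr16:88803744-88803771, + strand: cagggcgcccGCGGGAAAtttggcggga
POLA1 is the catalytic subunit of the priming polymerase, MCM3 part of the replicative helicase, GINS2 part of the GINS complex that activates it, and CDT1 the loader of the helicase at origins. Replication genes with the letters had a median log2 ratio of -0.14 and those without them -0.12.

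Genes of amino acid synthesis, amino acid transport and tRNA charging held the ATF4 letters TGATGNAA, on either strand, in 13 of 37 windows (35.1%), against 1.64% of all. Their 4 members with the largest ratios in size under the same rule are shown with the letters in capitals.
ASNS, chr7:97872459-97872486, - strand: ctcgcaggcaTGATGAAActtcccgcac
GOT1, chr10:99430805-99430832, - strand: attgcattggTTGCATCAttctcggcag
BCAT1, chr12:24949132-24949159, - strand: gtcttcctgcTGATGCAAtccgctaggt
MTHFD1L, chr6:150866347-150866374, + strand: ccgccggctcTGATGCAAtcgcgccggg
ASNS makes asparagine, GOT1 and BCAT1 are aminotransferases of aspartate and of branched-chain amino acids, and MTHFD1L is a mitochondrial enzyme of folate metabolism. ASNS, BCAT1 and MTHFD1L were lower at 0.5 nM and GOT1 was higher, so the same letters were found in windows of genes on both sides of 0.

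Interferon-stimulated genes held the ISRE letters, GAAA, any 2 bases and GAAA, on either strand, in 13 of 22 windows (59.1%), against 2.92% of all, and the 4 shown were chosen by the same rule. Only the first eligible site of each window is in capitals. The windows of DDX60, ISG15 and IFIT3 held 2 eligible sites each and that of IFI6 held 3, and such sites can overlap.
DDX60, chr4:168318821-168318850, - strand: gtgctgaaggGAAACTGAAAcctaagtgct
IFI6, chr1:27672329-27672358, - strand: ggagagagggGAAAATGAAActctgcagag
ISG15, chr1:1013374-1013403, + strand: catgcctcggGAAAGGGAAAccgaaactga
IFIT3, chr10:89327831-89327860, + strand: agccgttaggTTTCATTTTCctcctcccaa
DDX60 is a helicase of antiviral defence, IFI6 an interferon-induced membrane protein, ISG15 a ubiquitin-like modifier and IFIT3 an RNA-binding antiviral protein. Members with the letters had a median log2 ratio of 0.21 and those without them 0.25. Cytosolic ribosomal protein genes held a TOP tract, here a C within 4 bases before to 6 after the annotated start that is followed by 5 or more C or T, in 48 of 64 windows (75%), against 12.5% of all. Those shown had a tract, whole counts and the highest untreated CPM among members outside the chromosome left out of printing. The tract is in capitals from the first such C, which in RPL13A has further C and T before it.
RPL13A, chr19:49487600-49487618, + strand: acctCCTCCTTTTCCaagc
RPL4, chr15:66504835-66504863, - strand: ggagtggtaagcaCTTCCTTTTCCTgtgg
RPLP0, chr12:120201099-120201119, - strand: cgcgaggCCCTTCTCTCgcca
RPS6, chr9:19380224-19380244, - strand: agttggCCCTCTTTTCCgtgg
All 4 encode proteins of the cytosolic ribosome. Such matches describe letters in a window and are not shown binding sites, and gene sets of different motifs can overlap.

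The 2 libraries were close for most genes. The median log2 ratio over the 11322 measured genes was 0.00, the middle 50% lay between -0.11 and 0.12, and 90% lay between -0.31 and 0.40. By the 2-fold rule 60 genes (0.53%) were higher and 26 (0.23%) lower, and by the 1.5-fold rule 277 (2.45%) were higher and 102 (0.901%) lower. Most genes past 2-fold were barely expressed: 49 of the 60 higher and 25 of the 26 lower ones had a mean under 5 CPM in the 2 libraries. The median width of the counting interval was 1.3 on the log2 scale for genes under 5 CPM, 0.56 from 5 to 20 CPM and 0.23 above 20 CPM. Of the 26 lower genes 18 were uncertain, and of the 60 higher genes 14. In 3 of the higher and 4 of the lower genes 1 library was at 0. Among them was EIF3CL, a near-identical copy of EIF3C, with 94 untreated counts, 0 at 0.5 nM and 48 at 1.5 nM. Counts of such copies depend on how shared reads were assigned, so no bound on its fold is given.

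**Figure D1:**
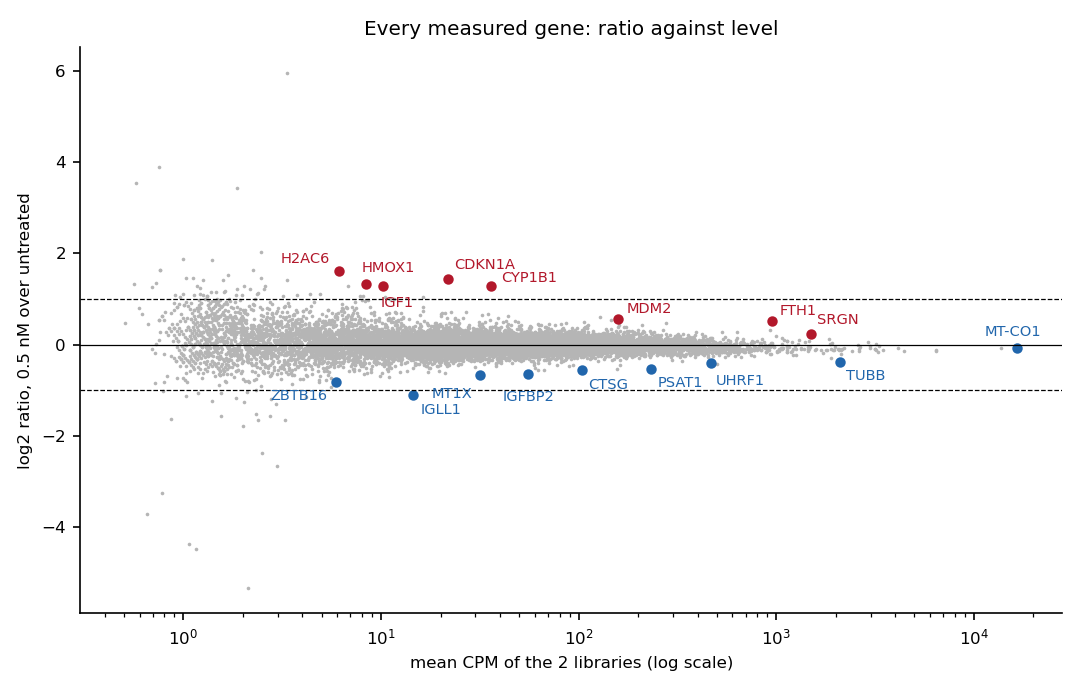
Each grey point is a measured gene, with its mean CPM of the 2 libraries on a log axis and its log2 ratio of 0.5 nM to untreated on the vertical axis, and dashed lines mark 2-fold. Red and blue points are genes named in the text: CDKN1A, HMOX1, H2AC6, IGF1 and CYP1B1 stand above the upper line and IGLL1 below the lower one, while the abundant genes TUBB (-0.38) and FTH1 (0.52) lie between the dashed lines.

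The higher genes of 5 CPM or more were led by H2AC6, a replication-dependent H2A histone gene, with 65 counts in the untreated library and 153 at 0.5 nM, or 2.95 and 9.26 CPM, a ratio of 1.62 (1.22 to 2.09). CDKN1A, the gene of the cell cycle inhibitor p21, had 258 and 525 counts, a 2.70-fold difference, and stood lower at 1.5 nM with 335 counts. HMOX1, which breaks down haem, had 104 and 198 counts and 643 at 1.5 nM. CYP1B1, a cytochrome P450 known as an aryl hydrocarbon receptor target, had 20.8 and 51.0 CPM, and IGF1, an insulin-like growth factor, had 5.90 and 14.5 CPM, a ratio of 1.28 (0.98 to 1.61). These genes had intervals that lay wholly at or above 0.98, or about 2-fold.

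A second tier of higher genes lay near 2-fold and included signalling genes. HIPK2, a kinase that phosphorylates p53, had 115 and 183 counts, and HBEGF, a ligand of the EGF receptor, had 111 and 176. SEMA6B, a semaphorin, had a ratio of 1.05 (0.76 to 1.37), and BTG2, an anti-proliferative p53 target, one of 1.04 (0.80 to 1.29). CD101, an immunoglobulin-family surface protein of myeloid cells, rested on 161 and 244 counts. JUN, an AP-1 subunit, had 5.35 and 10.6 CPM and CXCL8, a chemokine for neutrophils, 5.76 and 11.4 CPM. EDA2R, a receptor of the TNF family that p53 is known to induce, had 113, 152 and 68 counts in the untreated, 0.5 nM and 1.5 nM libraries, so it was high at 0.5 nM alone. The kinase gene SRC (0.82) and the adaptor gene CYTIP (0.82) were the last of the 20 genes named by the rule.

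Among genes of 5 CPM or more that were at least 1.5-fold lower, 18 with a symbol met the rule for naming. IGLL1, the surrogate light chain of early B cells, was the lowest, with 436 and 151 counts, a ratio of -1.10 (-1.39 to -0.84), and it stood at -1.12 at 1.5 nM. ZBTB16, a zinc finger repressor of immature blood cells, had 166 and 70 counts. IGFBP2, which binds insulin-like growth factors, had 67.8 and 43.6 CPM and a ratio of -0.64 (-0.77 to -0.51), so it and IGF1 stood on opposite sides. MT1X, a metallothionein, had 39.0 and 24.5 CPM. The others were lower-level genes, among them PRKAR1B (-0.72), a regulatory subunit of protein kinase A, WDR24 (-0.69), part of the GATOR2 complex of amino acid sensing, FBN1 (-0.67), fibrillin, and SDHAF1 (-0.61), an assembly factor of respiratory complex II. PRKAR1B stood at -0.08 at 1.5 nM. RPL36A-HNRNPH2, TMEM35B, DDTL, SCO2 and BOLA2 also met the rule and had uncertain counts.

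In CPM, a share of the library that is not per length, the largest gains were in abundant transcripts. FTH1, the ferritin heavy chain, gained 337 CPM from 778 to 1115, with uncertain counts. SRGN, the granule proteoglycan serglycin, went from 1375 to 1605 CPM and AHNAK, a large scaffold protein, from 825 to 1035. The actin-binding proteins LCP1 (0.12) and FLNA (0.19) and the lysosomal membrane protein LAPTM5 (0.28) were also among the 10 largest gains. The 10 largest losses were those of 5 mitochondrially encoded genes, the elongation factor EEF1A1 (-0.07), the tubulins TUBB and TUBA1B, NCL and ACTB. MT-CO1, a subunit of cytochrome oxidase, went from 17052 to 16108 CPM, a ratio of only -0.08, whereas TUBB, a beta tubulin, went from 2366 to 1824 CPM, a ratio of -0.38 (-0.40 to -0.35). NCL, nucleolin, was -0.20 and ACTB, beta actin, -0.12.

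Ratios also followed properties of the transcripts. Across genes, which are not independent replicates, the log2 ratio had a Spearman correlation of -0.27 with transcript GC content and 0.27 with transcript length, the latter 0.06 at 1.5 nM. In bins of 1131 genes by length, the median ran from -0.12 for the shortest to 0.08 for the longest, against -0.04 and 0.02 at 1.5 nM. In 10 bins by GC it ran from 0.09 at a median GC of 36.8% to -0.10 at 63.8%. Gene lists of short transcripts are given below also with the length trend removed.

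Of 94 gene lists, 87 had 5 or more measured members. A list was called higher or lower where its median log2 ratio was at least 0.1 from that of all genes, and 27 were higher, 17 lower and 43 near. The plot of list members shows lists of all 3 kinds. Of all measured genes, 50.5% were above 0, 16.7% had a counting interval above 0 and 17.4% had one below 0. The counts given for each list below are to be read beside these shares. Intervals are narrower for genes of higher level, and no share among genes of like level was computed. Removing the length trend left 36 of the 44 calls, and removing both the length and GC trends left 32. No called list moved to the opposite side by 0.1 or more under any alternative.

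**Figure D2:**
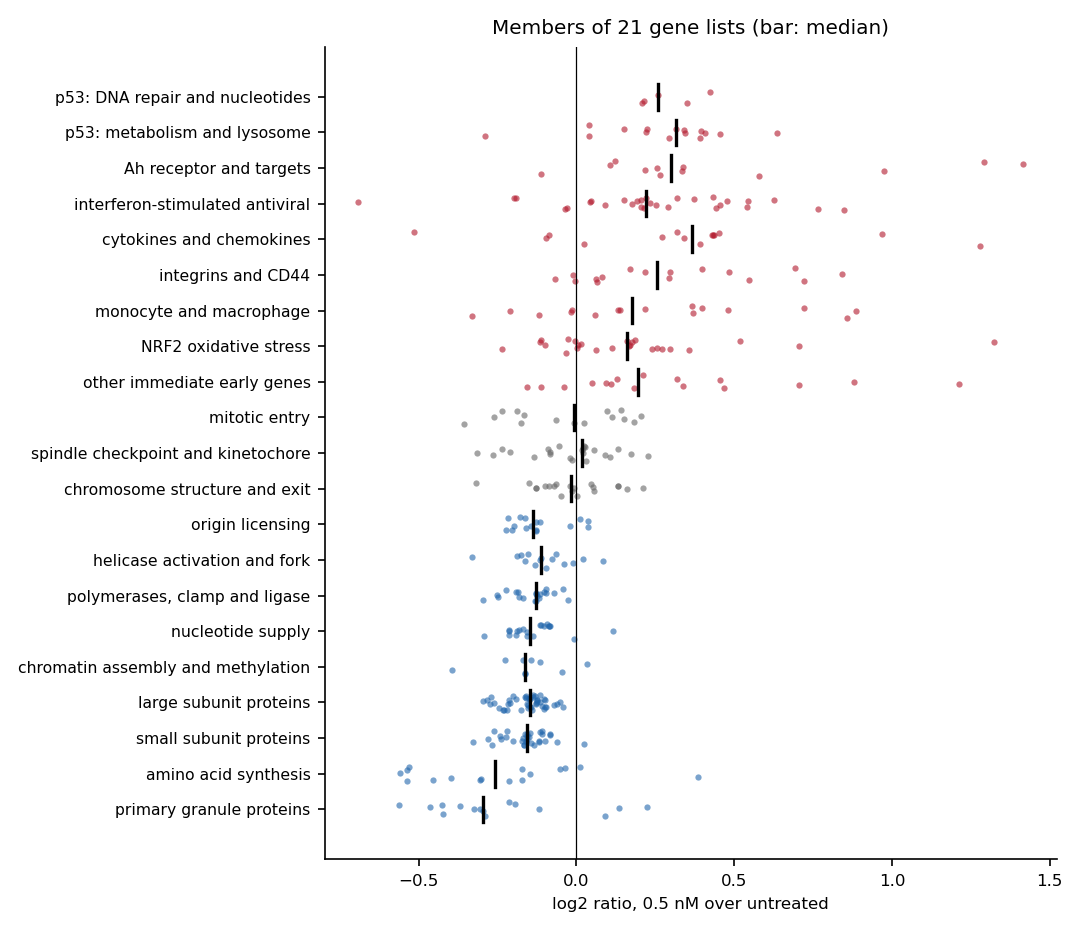
Each point is a measured gene of a list, placed at its log2 ratio of 0.5 nM to untreated, and the black bar is the list's median. Red lists had a median at least 0.1 above that of all genes, blue lists at least 0.1 below and grey lists were between: replication, ribosomal, amino acid synthesis and granule lists lie to the left, mitotic lists straddle 0, and p53, Ah receptor, cytokine, integrin and interferon lists lie to the right.

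p53 targets were higher unevenly by role. In the list of DNA repair and nucleotide supply, which also held the reductase gene FDXR, all 5 genes were above 0, against 50.5% of all genes. The median was 0.26, and all 5 counting intervals were above 0, against 16.7% of all genes. RRM2B, the p53-induced ribonucleotide reductase subunit, had 178 and 239 CPM and a ratio of 0.42 (0.36 to 0.49). POLH, a polymerase that copies past damaged bases, was 0.26, the damage sensors DDB2 and XPC were both 0.21, and FDXR, ferredoxin reductase, was 0.35. At 1.5 nM the median of these 5 genes was -0.05.

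Of 15 targets of metabolism, redox control and lysosomes, 14 were above 0, with a median of 0.32 and 9 intervals above 0. SESN1, a sestrin that restrains mTORC1, had 347 and 405 counts and a ratio of 0.64 (0.43 to 0.85), past 1.5-fold. SESN2 (0.41), its relative, DRAM1 (0.40), a lysosomal protein of autophagy, and the uncertain genes TRIM22 (0.46) and ZMAT3 (0.39) followed. TNFAIP8 was the exception at -0.29 (-0.43 to -0.15).

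Targets of cell cycle arrest rested on CDKN1A and BTG2. The other 7 measured members lay between -0.51 and 0.15, and the list median was 0.13. BTG2 had 235, 363 and 455 counts in the untreated, 0.5 nM and 1.5 nM libraries. GADD45B, a stress gene of the GADD45 family, was the lowest member with 291 and 153 counts, a ratio of -0.51 (-0.80 to -0.22), and GTSE1, a mitotic regulator that restrains p53, was at -0.01. In the feedback list MDM2, the ubiquitin ligase of p53, had 2831 and 3119 counts, or 128 and 189 CPM, a ratio of 0.56 (0.48 to 0.63). MDM2 stood at 131 CPM at 1.5 nM, a ratio of 0.02.

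Targets of cell death lay on both sides of 0, with 7 of 11 above 0 and a median of 0.08. TP53INP1, an autophagy and stress protein, had 5.58 and 11.0 CPM and a ratio of 0.96 (0.63 to 1.32). The death receptor FAS was 1.14 (0.54 to 1.87) on 32 and 55 uncertain counts, and TNFRSF10B, the TRAIL receptor DR5, 0.31 (0.21 to 0.41), also uncertain. BBC3, the BH3-only protein PUMA, had 54 and 58 counts and an interval that included 0. PMAIP1, the BH3-only protein NOXA, was the member nearest 0 at 0.00.

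**Figure D3:**
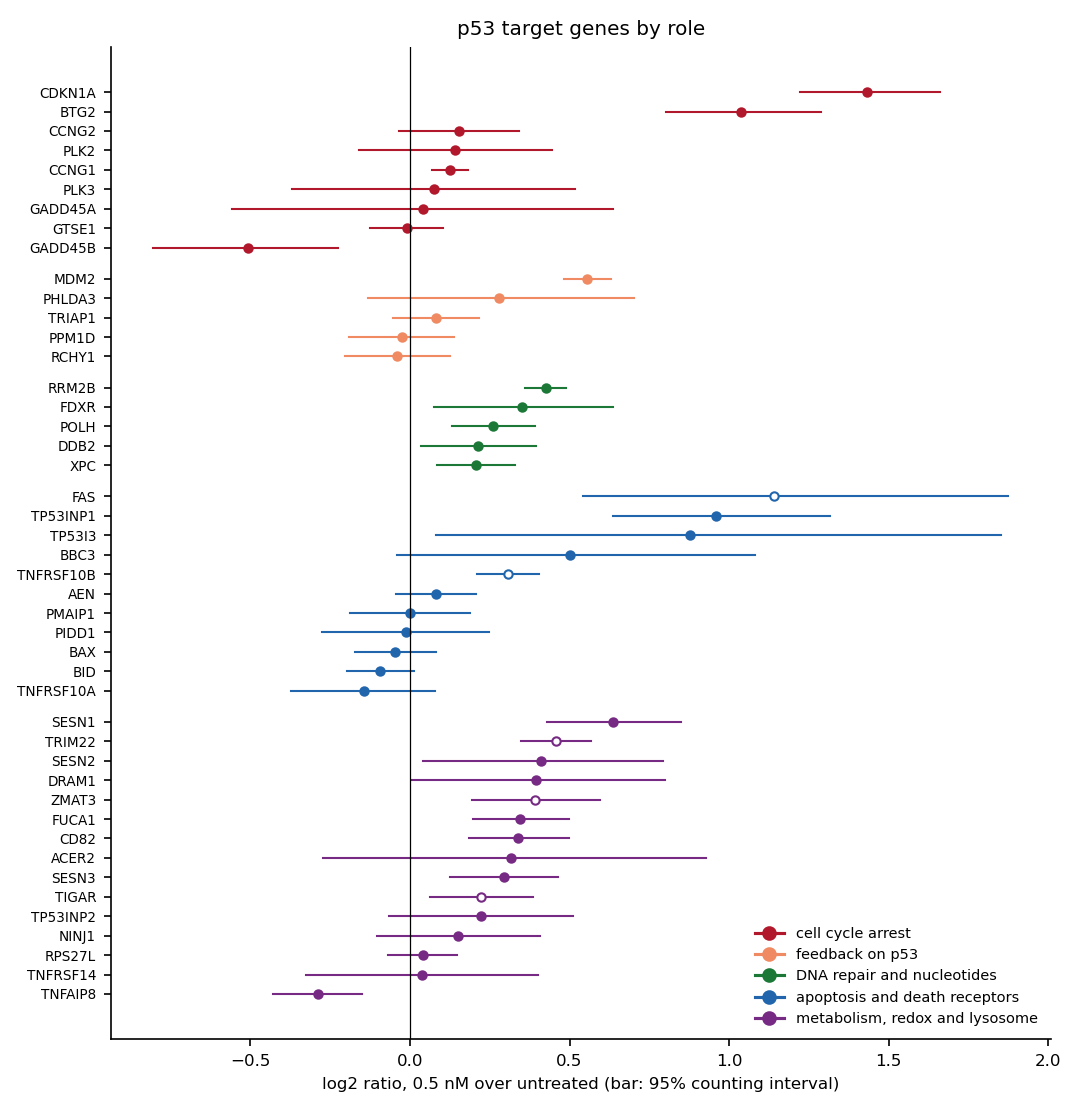
Each measured p53 target is placed at its log2 ratio of 0.5 nM to untreated, with the bar giving the 95% counting interval, colours giving the role and open circles marking uncertain counts. The 5 genes of the repair and nucleotide list and 14 of 15 metabolism genes lie to the right of 0. CDKN1A, BTG2 and MDM2 stand apart from the other members of their roles.

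DNA replication genes were lower by small amounts and nearly without exception. Of 81 genes in 5 lists, 74 were below 0, against 49.5% of all genes, and 56 had intervals below 0, against 17.4%. The 17.4% is over genes of all levels, and intervals are narrower for genes of higher level. The median was -0.13, the members ranged from -0.39 to 0.12, none passed 1.5-fold, and their summed level was 14550 CPM in the untreated library, 13136 at 0.5 nM and 11649 at 1.5 nM. At 1.5 nM the median was -0.31. With the length trend removed the 5 list medians were -0.15, -0.12, -0.13, -0.13 and -0.15, in the order below.

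By role, origin licensing had 13 of 16 below 0, helicase activation and the fork 13 of 15, polymerases, clamp and ligase all 21, nucleotide supply 19 of 20, and chromatin assembly 8 of 9. The helicase subunit MCM4 had 21993 and 14172 counts and a ratio of -0.22 (-0.25 to -0.19), and MCM2, MCM3 and MCM5 lay at -0.22, -0.21 and -0.20. The 4 origin recognition genes ORC2, ORC3, ORC4 and ORC6 lay between -0.02 and 0.04, whereas ORC1 was -0.13. GINS1 was the lowest fork gene at -0.33 (-0.45 to -0.22). POLD1, the catalytic subunit of polymerase delta, was -0.30 (-0.38 to -0.21), the flap endonuclease FEN1 -0.25 and the nuclease and helicase DNA2 -0.25. The lowest of all 81 was UHRF1, which recruits DNA methylation to new DNA, with 531 and 404 CPM and a ratio of -0.39 (-0.44 to -0.35), and its partner DNMT1 was -0.16. DTYMK, thymidylate kinase, was the lowest nucleotide gene at -0.29 (-0.45 to -0.13), and DCK, which salvages deoxycytidine, was the highest at 0.12 (0.04 to 0.20).

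The regulators of these genes were mixed. In the E2F and RB family 6 of 13 were above 0 with a median of -0.05. The activator E2F1 had 929 and 614 counts and a ratio of -0.18 (-0.33 to -0.03), and E2F8, a repressor that is itself a cell cycle gene, was -0.32 (-0.47 to -0.17). RB1, the retinoblastoma protein, was 0.22 (0.17 to 0.27) and its relative RBL2, uncertain, 0.16. Of G1 genes, CDK4 was -0.35 and CCND2, cyclin D2, 0.71, both uncertain, and cyclin E1 (CCNE1) was -0.18 (-0.34 to -0.03). MYC was -0.21 (-0.26 to -0.15), while its antagonists MNT (0.36), MXI1 (0.23) and MGA (0.21) were above 0.

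Mitotic genes lay on both sides of 0. Of 58 in 3 lists, 27 were above 0 and 31 below, the median was -0.01, and none passed 1.5-fold. Of their intervals 12 lay above 0 and 20 below, against 16.7% and 17.4% of all genes. Genes on the lower side included MYBL2 (-0.26), a partner of the late cell cycle program, WEE1 (-0.24), which holds CDK1 inactive, the kinetochore gene ZWINT (-0.24), the passenger complex gene INCENP (-0.32) and UBE2C (-0.32), the ubiquitin conjugating enzyme of mitotic exit. On the higher side stood cyclin B1, CCNB1, with 224 and 254 CPM and a ratio of 0.18 (0.12 to 0.24), the kinetochore motor CENPE (0.23), CEP55 (0.21), which completes cell division, and KIF20A (0.16). CCNB1 stood at 0.54 at 1.5 nM. The proliferation marker MKI67 was -0.10 (-0.13 to -0.06). Windows of the mitotic genes held the cell cycle homology letters TTTGAA, on either strand, in 30 of 47 cases (63.8%), against 9.77% of all.

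Replication-dependent histone genes, whose messages mostly lack a polyA tail and so are poorly caught by oligo(dT), were scarce, with 14 of 58 listed genes measured. Of these 10 were above 0 and the median was 0.49, against 0.86 at 1.5 nM. After H2AC6 came H3C10 with 14 and 31 counts and H2BC4 with 16 and 28, and the uncertain H2BC21 had a ratio of 1.28 (0.71 to 2.01). H2AC20 was the lowest at -0.61 (-1.56 to 0.18). Among replacement variants H2AX, the variant phosphorylated at DNA breaks, was -0.29 (-0.40 to -0.18) and H2AZ1 -0.19.

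Homologous recombination and Fanconi genes were mostly below 0, with 17 of 21 and a median of -0.09, among them FANCD2 (-0.20), XRCC2 (-0.23) and EXO1 (-0.21), but BRCA2 was 0.21 (0.14 to 0.28). Checkpoint genes lay around 0 with 7 of 15 above, from CHEK1 at -0.17 to ATM, the kinase of double-strand breaks, at 0.25 (0.19 to 0.31).

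Tubulin genes lay mostly below 0. TUBB had 52144 and 30133 counts, and TUBA1B, an alpha tubulin with uncertain counts, had 2092 and 1695 CPM, a ratio of -0.30 (-0.33 to -0.28). TUBA1C was -0.25, also uncertain. Over 13 tubulins the median was -0.20, 10 were below 0, 5 intervals lay below 0 and 1 above, and 10 genes were uncertain, and their summed level was 5371 CPM untreated, 4344 at 0.5 nM and 3844 at 1.5 nM. TUBA1A, uncertain and at 4.76 and 7.26 CPM, was the highest of the 3 above 0, at 0.60 (0.22 to 1.00), and TUBA8, uncertain and on 47 and 22 counts, was the lowest at -0.64 (-1.48 to 0.08). TTC5, which directs the decay of tubulin messages when free tubulin is plentiful, was -0.03 (-0.22 to 0.17). Microtubule-binding genes had a median of 0.01, with STMN1, the tubulin-sequestering protein stathmin, at -0.16 (-0.19 to -0.12) and CLIP1, which tracks growing ends, at 0.31 (0.16 to 0.47).

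FLT3, the receptor tyrosine kinase of early myeloid cells, had 11152 and 8078 counts, a ratio of -0.05 (-0.09 to -0.01). The 27 measured genes of its ligand, adaptors and kinases had a median of 0.04, and STAT5 and its targets 0.02. In these lists SRC (6.35 and 11.3 CPM) and GAB2 (0.31), an adaptor of PI3 kinase signalling, were the higher members with whole counts, and SOCS2, a STAT5-induced inhibitor, was -0.27 (-0.43 to -0.13). Targets of the KMT2A fusion had a median of -0.02, with HOXA9 at 0.01 and HOXA10 at -0.23.

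Ribosomal protein genes were lower almost to the last member, and their median was close to that of the shortest transcripts in general. Of 80 cytosolic genes 79 were below 0 and 78 had intervals below 0. Their median was -0.15, their range -0.33 to 0.03, and their summed level 61230 CPM untreated and 55489 at 0.5 nM. At 1.5 nM the median was 0.00 and the sum 60963 CPM. The lowest were RPS29 (-0.33 (-0.40 to -0.25)), RPL38 (-0.29) and RPL36 (-0.28), and RPL4, at 2019 and 1936 CPM, was -0.06. The median transcript length of the large and small subunit genes stood at the 2.7th and 1.4th percentile of measured genes, and with the length trend removed their medians were -0.03 and -0.02.

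Nuclear genes of oxidative phosphorylation were below 0 in 46 of 50 cases, with a median of -0.12 and -0.03 after removal of the length trend. Mitochondrial ribosomal proteins were below 0 in 36 of 39, with -0.11 and -0.06. Of 13 mitochondrially encoded genes 12 were below 0, with a median of -0.12 and 0.00 after the same removal, and their sum was 54338 CPM untreated and 50470 at 0.5 nM. ATP5F1D, a subunit of the ATP synthase, was the lowest nuclear gene at -0.34 (-0.47 to -0.21), NDUFA5, of complex I, the highest at 0.19 (0.10 to 0.28), and MT-ATP8 was 0.12 (0.07 to 0.17).

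**Figure D4:**
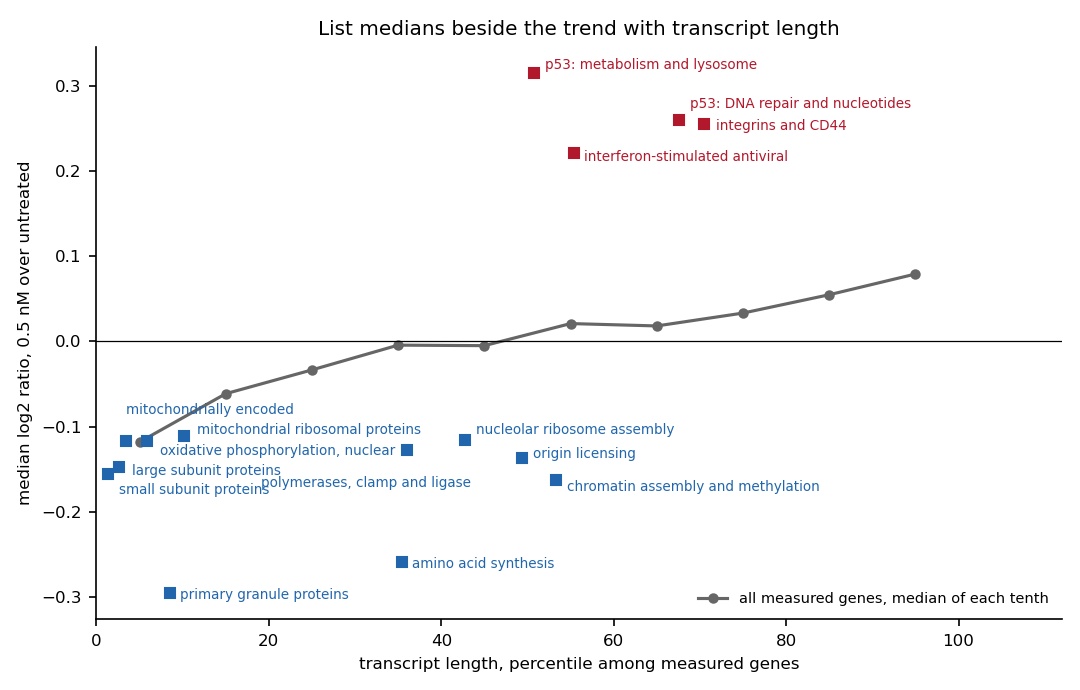
Grey circles joined by a line give the median log2 ratio of 0.5 nM to untreated in 10 equal bins of measured genes by transcript length, and squares place gene lists at their median length percentile and median ratio. Ribosomal and mitochondrial lists lie beside the line at short lengths, whereas replication, amino acid synthesis and primary granule lists lie below it and p53, integrin and interferon lists above it.

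Nucleolar assembly genes, whose transcripts are of middling length, were below 0 in 28 of 32 cases with a median of -0.12. BOP1, of pre-rRNA processing, was -0.26 (-0.35 to -0.18), and nucleolin, NCL, -0.20 (-0.22 to -0.18). Among translation factors, EIF4EBP1, the mTORC1-controlled repressor of cap-dependent translation and a known ATF4 target, was the lowest at -0.38 (-0.49 to -0.28).

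Amino acid synthesis genes were lower by more than replication genes, and by the same amount after removal of the length trend. Of 16 genes 14 were below 0 and 11 had intervals below 0, the median was -0.26, and it was -0.27 with the length trend removed. The serine pathway was among the lowest: PHGDH, its first enzyme, had 1629 and 828 counts, a ratio of -0.56 (-0.68 to -0.44), and PSAT1, its second, had 275 and 191 CPM, a ratio of -0.53 (-0.59 to -0.47). PSPH, the third, was -0.15 with uncertain counts. GPT2, alanine aminotransferase, was -0.54 (-0.63 to -0.44), CBS, of transsulphuration, -0.54 (-0.84 to -0.25), and ALDH1L2, of mitochondrial folate, -0.45 (-0.56 to -0.35). Asparagine synthetase, ASNS, had 1566 and 890 counts and a ratio of -0.40 (-0.52 to -0.28). None of the 16 passed 1.5-fold, and GOT1 was the highest at 0.38 (0.15 to 0.62). Summed, the list stood at 1757 CPM untreated, 1450 at 0.5 nM and 1367 at 1.5 nM.

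The other parts of amino acid supply were closer to 0. Transporters had 8 of 11 below 0 and a median of -0.11, from SLC43A1 at -0.24 (-0.37 to -0.11) to SLC7A11, the cystine importer, at 0.30 (0.13 to 0.47). tRNA synthetases had 17 of 20 below 0 and a median of -0.10, with IARS1 (-0.26), GARS1 (-0.23) and YARS1 (-0.22) the lowest. In the integrated stress response 8 of 16 were above 0. ATF4 was -0.25 (-0.32 to -0.19) and CHAC1, a glutathione-degrading ATF4 target, -0.89 (-1.86 to -0.12) on 44 and 17 counts. PPP1R15A, which ends the response by restoring eIF2, was 0.38 (0.23 to 0.53), and TRIB3 was 0.00. The unfolded protein response had a median of -0.04, with HERPUD1, a stress protein of the endoplasmic reticulum, at -0.26 (-0.34 to -0.17), and cytosolic heat shock genes had -0.07.

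**Figure D5:**
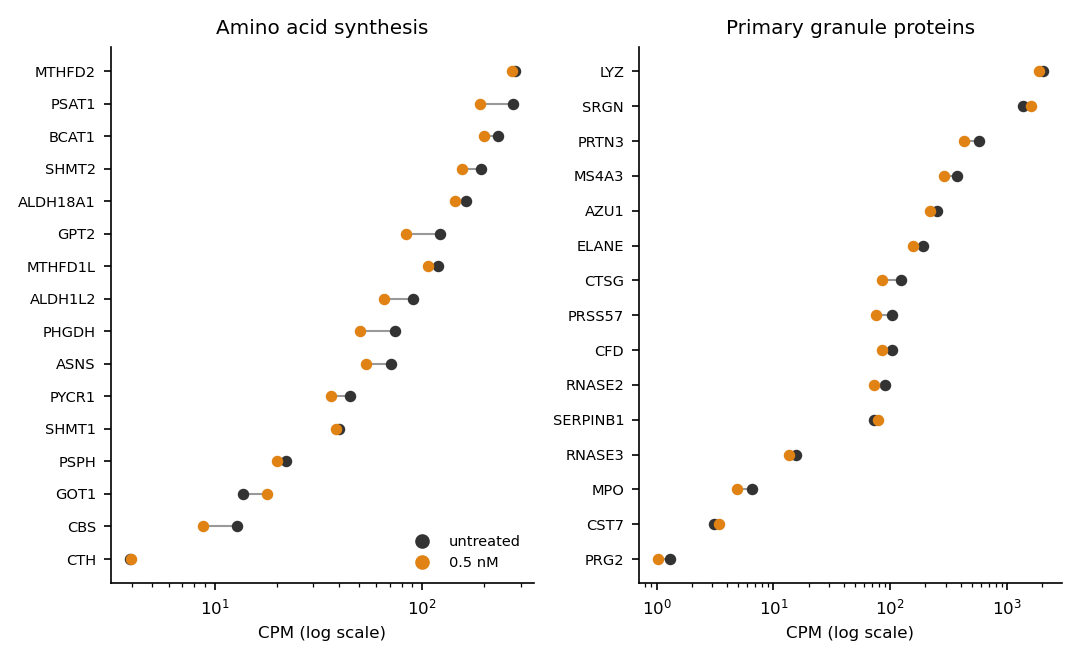
Levels in CPM, on log axes, of the 16 amino acid synthesis genes (left) and the 15 primary granule genes (right) in the untreated (black) and 0.5 nM (orange) libraries, joined by a line. CPM is not per length, so levels are compared between libraries and not between genes. PSAT1, GPT2, PHGDH, ALDH1L2 and CBS show the widest gaps on the left and CTSG, PRSS57, MPO and PRTN3 on the right, while GOT1, SRGN, SERPINB1 and CST7 stand higher at 0.5 nM.

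Targets of the aryl hydrocarbon receptor, a ligand-activated factor known for inducing cytochrome P450 enzymes, were above 0 in 11 of 12 cases, with 9 intervals above 0 and a median of 0.30. Beside CYP1B1, CYP1A1 had 28 and 43 counts, a ratio of 0.98 (0.31 to 1.78). IL4I1, an amino acid oxidase that makes receptor ligands, had 39 and 81 counts (1.42 (0.90 to 2.06)), and the receptor AHR 31.3 and 46.8 CPM (0.58 (0.43 to 0.73)), both uncertain. TIPARP, a feedback inhibitor of the receptor, was 0.34 (0.20 to 0.48). SLC7A5, the large amino acid transporter, was the 1 member below 0, at -0.11 (-0.16 to -0.06).

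The NRF2 list had 18 of 25 above 0 and a median of 0.16, or 0.10 without the length trend. HMOX1 and FTH1, which handle haem and iron, stood apart at 1.33 and 0.52. OSGIN1 was 0.70 (0.03 to 1.48) on 31 and 39 counts, and BACH1, the repressor of HMOX1, 0.36 (0.25 to 0.47). The redox enzyme TXNRD1 was 0.00, and FTL, the ferritin light chain, was -0.03. The list of metallothioneins and iron genes was near 0 with 6 of 13 above, a median of -0.02, 3 intervals above 0 and 5 below. Its metallothioneins, which bind zinc and copper, lay on the lower side: MT1X (-0.67 (-0.84 to -0.50)), MT1G (-0.56 (-0.68 to -0.44)), MT1F (-0.29) and MT1E (-0.25) all had intervals below 0, and MT2A was -0.15 (-0.32 to 0.02). The transferrin receptor TFRC, at 1431 and 1509 CPM, was 0.08.

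Immediate early genes and MAPK feedback genes lay mostly above 0, and AP-1 subunits on both sides. Of 16 immediate early genes 13 were above 0, with a median of 0.20. ID2, an inhibitor of helix-loop-helix factors, had 452 and 554 counts, a ratio of 0.71 (0.53 to 0.89), and KLF10 was 0.47 (0.32 to 0.62). ZFP36L1, which destabilises messages, was 1.21 (0.59 to 2.00) on 28 and 51 counts. Of 11 AP-1 genes 7 were above 0, or 6 with the length trend removed, and the median was 0.20. Of their intervals 2 lay above 0 and 2 below, close to the shares of 16.7% and 17.4% among all genes. JUN had a ratio of 0.97 (0.64 to 1.33) and FOSL1 of 0.48 (0.15 to 0.82), whereas JDP2, a repressor of AP-1, had -0.67 (-1.19 to -0.21), and FOSB was the lowest at -0.82 (-2.01 to 0.10) on 30 and 12 counts. MAPK feedback genes had 10 of 12 above 0 and a median of 0.19. Only 2 of these 12 had an interval above 0, a share like the 16.7% among all genes, and none had one below. The list was led by PHLDA1 (1.11 (0.66 to 1.63)) and DUSP10 (0.48 (0.25 to 0.71)), a phosphatase of stress kinases. The stress kinases themselves lay around 0 with a median of -0.02.

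Cytokines and chemokines were higher. Of 35 listed genes 14 were measured, 11 of them above 0, with 6 intervals above 0 and none below, and a median of 0.37. Beside IGF1, CXCL8 had a ratio of 0.97 (0.65 to 1.32), and TNF, at 4.99 and 6.78 CPM, had 0.43 (0.05 to 0.83). IL1B and IL18 had intervals that included 0, and OSM was the lowest at -0.52 (-1.10 to 0.02). NF-kB subunits and feedback genes lay around 0, with 10 of 21 above and a median of -0.02. BIRC3 was 1.27 (0.21 to 2.92) on 8 and 17 counts, and the inhibitor NFKBIA was -0.17 (-0.40 to 0.05).

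Genes that make prostaglandins and leukotrienes were above 0 in 8 of 9 cases, with 6 intervals above 0 and a median of 0.22. PTGS2, the inducible cyclooxygenase, had 24 and 44 counts, a ratio of 1.21 (0.54 to 2.07). TBXAS1, thromboxane synthase, was 0.51 (0.10 to 0.95), PTGS1 0.30 (0.07 to 0.53) and ALOX5AP, which activates 5-lipoxygenase, 0.22 (0.11 to 0.32). Of inflammasome genes the sensors NLRC4 (0.86 (0.41 to 1.35)) and MEFV (0.51 (0.22 to 0.82)) were the highest, and the effector protease CASP1, uncertain, lay at 0.01.

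Interferon-stimulated antiviral genes were above 0 in 24 of 29 cases, with a median of 0.22. Of their intervals 10 lay above 0 and 1 below, against 16.7% and 17.4% of all genes. Most had few counts. RSAD2, the antiviral protein viperin, had 53 and 73 counts, a ratio of 0.85 (0.35 to 1.42), and DDX60 had 32 and 42, a ratio of 0.76 (0.11 to 1.52). MX1, a classic member, was -0.69 (-2.02 to 0.34) on 23 and 10 counts. The 3 measured guanylate-binding proteins, which act against intracellular microbes, were above 0, with GBP2 at 0.76 (0.41 to 1.13). Of signalling factors, STAT2 was 0.32 (0.19 to 0.46) and IRF8, a factor of monocyte development, -0.14 (-0.17 to -0.11). Cytosolic nucleic acid sensors had 8 of 12 below 0, with CGAS at 0.00 and UNC93B1, a trafficking chaperone of Toll-like receptors, at -0.32 (-0.43 to -0.21).

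Of the antigen presentation lists, class I was near 0, and class II and co-stimulation were higher. Class I genes had a median of 0.03, with ERAP2, a peptide-trimming enzyme, at 0.57 (0.37 to 0.78), TAP1, of peptide transport, at 0.29 (0.06 to 0.51) and B2M at 0.03, and the uncertain HLA-C at -0.26. Class II genes had 7 of 9 above 0 and a median of 0.13, against 0.50 at 1.5 nM. HLA-DPA1 was 0.71 (0.19 to 1.29) on 52 and 65 counts, and CIITA, the activator of class II genes, uncertain, 0.32. Co-stimulation and checkpoint genes had 9 of 13 above 0 and a median of 0.16. Of their intervals 4 lay above 0 and 1 below, against 16.7% and 17.4% of all genes. The inhibitory receptor LILRB2 was 1.15 (0.42 to 2.08) on 21 and 37 counts, the checkpoint ligand VSIR was 0.42 (0.23 to 0.61) and the co-stimulator CD86 0.86 (0.25 to 1.57).

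Myeloid genes were split between granule proteins and surface markers. Primary granule proteins, made at the promyelocyte stage, were below 0 in 12 of 15 cases with 10 intervals below 0 and a median of -0.30. It was -0.20 with the length trend removed and -0.14 with the GC and length trends removed, and -0.09 at 1.5 nM. CTSG, cathepsin G, had 2743 and 1392 counts, a ratio of -0.56 (-0.66 to -0.47). The proteases PRSS57 and PRTN3 were -0.47 (-0.57 to -0.37) and -0.42 (-0.46 to -0.38), and myeloperoxidase, MPO, was -0.43 (-0.84 to -0.03) on 146 and 81 counts. SRGN, which packs granules, was higher at 0.22 (0.20 to 0.25), and LYZ, lysozyme, at 2022 and 1861 CPM, was -0.12.

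Monocyte and macrophage markers were above 0 in 11 of 16 cases with a median of 0.18, against 0.33 at 1.5 nM. Of their intervals 8 lay above 0 and 1 below, and the lowest member was at -0.33. The summed level of the list was not higher, with 2684 CPM untreated and 2587 at 0.5 nM. Among members above 0, several stood out. FCGR2A, an activating Fc receptor, was 0.48 (0.28 to 0.68), ITGAX, the integrin chain CD11c, 0.72 (0.28 to 1.21), and the macrophage marker CD68 0.37 (0.23 to 0.51). VCAN, versican, had 22 and 32 counts. Integrins and CD44 were above 0 in 13 of 16 cases with 10 intervals above 0, none below, and a median of 0.26. ITGB7 (0.69, uncertain), ITGA6 (0.55 (0.21 to 0.90)), the adhesion molecules ICAM1 (0.84 (0.33 to 1.42)) and PECAM1 (0.48 (0.39 to 0.57)) led, and ITGAL, the CD11a chain, was 0.06 (0.03 to 0.09). In the NADPH oxidase, the cytosolic subunits NCF1 (0.74 (0.51 to 0.98)) and NCF4 (0.38 (0.29 to 0.47)) were higher, whereas the membrane subunit CYBA was -0.23 (-0.30 to -0.16).

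Toll-like receptors and adaptors had 11 of 14 above 0 and a median of 0.17, led by TLR6 (1.11) and TLR1 (0.55), both uncertain. Complement component C3 had 52 and 85 counts, a ratio of 1.09 (0.61 to 1.65), in a list with 8 of 11 above 0. Of that list's intervals 2 lay above 0 and 1 below, near the shares among all genes, and its lowest member was at -0.49. Its summed level was 271 CPM untreated and 266 at 0.5 nM. The complement list was no longer called higher on the TPM scale or among genes of 5 or more CPM. Of cytokine receptors, the kinase AXL was 0.74 (0.37 to 1.14), TGFBR1 0.33 (0.27 to 0.39) and IL1RAP 0.33 (0.26 to 0.39), while IGF1R, the receptor of IGF1, was -0.30 (-0.49 to -0.12). Lineage transcription factors had a median of -0.05, from LYL1 at -0.29 (-0.48 to -0.10) and IKZF1 at -0.20 (-0.25 to -0.15) to ID2.

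Of the cell death lists, which share members such as FAS and BBC3 with the p53 targets, BH3-only genes and caspases were near 0 and death ligands and receptors higher. Of BCL2 family members, MCL1 had 234 and 271 CPM (0.21 (0.15 to 0.27)), BCL2 was 0.07, and of BH3-only genes BMF was 0.49 (0.36 to 0.63). Caspases and apoptosome genes had a median of 0.07, with CASP2 at -0.16 (-0.25 to -0.07) and APAF1, uncertain, at 0.22. Death ligands and receptors had 9 of 10 above 0, with FAS the highest, 3 intervals above 0 and a median of 0.19.

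Fc receptors, lysosomes and transporters are known to take up, process and release conjugates. Fc receptors were a higher list, and the lysosomal and transporter lists were near 0. All 5 measured Fc receptors were above 0, with 2 intervals above 0 and a median of 0.20. Lysosomal enzymes and membrane proteins had 22 of 28 above 0 with 11 intervals above 0, none below, and a median of 0.08, among them CTSS (0.31 (0.20 to 0.41)) and ASAH1 (0.24 (0.17 to 0.31)). The proton pump subunit ATP6V0A1 was 0.54 (0.38 to 0.70) in a list with a median of 0.05, and TFEB, the lysosomal regulator, was -0.45 (-0.82 to -0.11). ABC transporters had a median of -0.06, with ABCA7 at 0.43 (0.24 to 0.62).

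Among other cell functions, splicing genes were below 0 in 30 of 34 cases with a median of -0.10 and proteasome genes in 30 of 31 with a median of -0.07. PSMB5, the proteasome's chymotrypsin-like subunit, was -0.35 (-0.46 to -0.24). Cholesterol synthesis had a median of 0.00, with DHCR7 at -0.36 (-0.57 to -0.16) and INSIG1, which retains the sterol sensor, at 0.28 (0.21 to 0.34). In lipid synthesis FASN was -0.27 (-0.32 to -0.22) and SCD -0.17 (-0.21 to -0.14). The small GTPase gene RHOB was 1.09 (0.42 to 1.94) on 25 and 42 counts. Of senescence and nuclear lamina genes, LMNA was 0.22 (0.14 to 0.30) and HMGA1 -0.27 (-0.32 to -0.22).

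Over the 319 pathways annotated in the deposited table with 10 or more measured genes, DNA replication had the lowest median, -0.16, with 34 of 35 genes below 0, followed by the ribosome at -0.14, base excision repair at -0.13 and mismatch repair at -0.12. Biosynthesis of amino acids was -0.11 with 44 of 56 below 0. The highest medians were those of ECM-receptor interaction, 0.29 with 24 of 31 above 0, African trypanosomiasis, 0.28 with 9 of 12 above 0, and arachidonic acid metabolism, 0.20 with 15 of 20 above 0.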

How the data were processed

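Total RNA of MV-4-11 cultures was extracted with Trizol, and polyA RNA was caught with oligo(dT), fragmented, copied into cDNA from random primers and read on an Illumina HiSeq2500, per the labels' protocols. The deposited table gives estimated counts per gene (expected counts, which need not be whole) and TPM, both computed by the authors. The submitters' processing notes name HISAT2, StringTie 1.3.1 and fastp 0.18.0 beside edgeR and DESeq2, without their roles. The genome build is not given in the sources used here, nor is the annotation. All columns of values were mapped to a library, so 0 were left out.

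Estimated counts were rounded, and CPM used TMM library sizes of edgeR 4.0.16 (R 4.3.3) with factors of 0.987, 1.01 and 1.01 for untreated, 0.5 nM and 1.5 nM. Ratios are differences of log2 CPM with a prior count of 2, for genes averaging at least 1 CPM over the 3 libraries. Intervals are exact Clopper-Pearson 95% intervals (scipy 1.17.1), and list medians were taken with pandas 2.3.3 in Python 3.11.15. Depth was 22329955, 16427203 and 16864853 counts. With 1 library a group no p-value was computed. A count was called whole within 1e-06. Transcript length is the authors' scale, estimated count over TPM (11310 of 11322 genes), and GC content came from GENCODE release 29 (11252 genes). Trends were removed by lowess with a span of 0.3 (statsmodels 0.14.6). Gene symbols and pathway names are those of the table, and promoter windows and coordinates are RefSeq's on GRCh38.p14, 1 window a gene.

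The 94 gene lists, the motifs and the comparison were chosen with earlier results of these data known. Genes were named by rule: the 20 largest ratios past 1.5-fold in each direction among genes with a symbol and 5 or more CPM, the 10 largest gains and losses in CPM, up to 6 members of each list with the largest ratios in size and 20 or more counts, the members nearest 0 and with the highest CPM, and FLT3, MDM2, CDKN1A, MYC, TUBB, TUBA1B, CCNB1, MKI67, TTC5 and HMOX1. A few genes that met the rule are not reported here. Genes with printed sequences had the rule given beside them. TNFAIP8, ORC1, ORC2, ORC3, ORC4, DCK, PSPH, NDUFA5, MT-ATP8 and EIF3CL were named after their values were seen, as exceptions or ends of a range. Alternatives were DESeq2 1.42.0 size factors, total counts, other filters, a prior count of 0.5, log2(TPM + 0.1), whole counts only and removal of the GC trend; removal of the length trend, alone and with GC, was chosen after seeing the data. The calculation was checked on simulated data.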

Additional observations from a re-analysis of the deposited data

How the results depend on the processing

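The 44 list calls rested on small medians: DESeq2 size factors, total counts, the filter on the 2 libraries and a prior count of 0.5 left all 44, no filter 40, a mean of 5 or more CPM 39, TPM 37, whole counts 36, GC removal 39, length removal 36 and removal of both 32, and no list moved to the opposite side by 0.1 or more. With GC and length trends removed 11 lists were lower, against 17. Counts past a fold depended on the level filter. With no filter (15576 genes) 537 genes were 2-fold higher, 263 2-fold lower, 1520 1.5-fold higher and 698 1.5-fold lower, and with a mean of 5 or more CPM (9773 genes) the counts were 15, 1, 80 and 21. On the TPM scale 99 genes were 2-fold and 441 1.5-fold higher, and among genes with whole counts 8 were 2-fold and 59 1.5-fold lower. TPM moved the median of all genes to 0.06 and total counts to 0.03. Under length removal the lists no longer called were both ribosomal lists, mitochondrial ribosomal proteins, MYC partners, interferon signalling factors, cytokine receptors, nuclear oxidative phosphorylation and mitochondrially encoded genes, whose median became 0.00336. Other alternatives lost further calls. The tRNA synthetases were lost at 5 or more CPM, on TPM, with whole counts and under GC removal. Feedback on p53 was lost with no filter, with whole counts and under GC removal, as was the liver X receptor list. Tubulins and death ligands and receptors were lost with whole counts, and cell cycle arrest on TPM. The causes of the other shifts were not tested. No paired analysis was possible because each group was 1 library. Depth limits genes under 5 CPM, whose counting intervals had a median width of 1.3 on the log2 scale.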
